A study of Drosophila melanogaster with 20 samples.

Results

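Transcripts of 39 proteasome subunit genes were measured in old adult male Drosophila melanogaster with and without forced expression of manganese superoxide dismutase (MnSOD), the mitochondrial antioxidant enzyme encoded by Sod2. The genes were chosen by name: a current symbol that begins with Prosalpha, Prosbeta, Rpn or Rpt followed by a digit, and a probe set of the array that the annotation assigns to that gene alone. Of 48 such genes in the RefSeq gene table, 39 were matched, out of 10845 genes named alone by a probe set. Where a gene had more than 1 probe set, the one with the highest mean over the 20 arrays stood for it. The set divides into 12 subunits of the core particle, 14 subunits of the regulatory particle and 13 paralogs whose symbols carry a suffix T or R. Prosalpha1, Prosalpha1R, Prosbeta1, Prosbeta5R2, Rpn9, Rpn10, Rpt1, Rpt6 and Rpt6R were not analysed here.

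The proteasome degrades proteins tagged with ubiquitin, among them misfolded and oxidized ones. Its barrel-shaped core is built from outer alpha rings, whose subunits gate the entrance, and inner beta rings, in which Prosbeta1, Prosbeta2 and Prosbeta5 carry the proteolytic sites. The regulatory particle caps the core: its base holds the Rpt ATPases, which unfold the substrate, and the scaffold and receptor subunits Rpn1, Rpn2, Rpn10 and Rpn13, and its lid holds the deubiquitinase Rpn11 and its partners. Drosophila also has duplicated subunit genes with the suffix T or R, several of which are known for expression in the male germ line.

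Each of 5 groups had 4 Affymetrix DrosGenome1 arrays, with RNA from 30 flies per sample. The MnSOD groups were sons of a cross between the transgene line MnSOD(2)22 and the driver line rtTA(3)E2, and the control groups were sons of Oregon R wild-type flies crossed to the same driver. In the driver line a tetracycline-dependent activator, rtTA, is made in all tissues and switches on the MnSOD transgene when doxycycline (DOX) is given; all groups carry the driver and all were kept on food with ampicillin. The groups were control flies without DOX (control -DOX) and with DOX (control +DOX), and MnSOD flies without DOX at 73 days (MnSOD -DOX day 73), with DOX at 73 days (MnSOD +DOX day 73) and with DOX at 83 days (MnSOD +DOX day 83). The sample labels give day 73 for the control flies, whereas the series design gives day 78. MnSOD(2)22 is 1 insertion line, so the insertion, the genetic background and the transgene cannot be told apart in a comparison with control flies. No group without DOX was sampled at day 83, so DOX and 10 further days of age cannot be told apart when day 83 is set against MnSOD -DOX day 73.

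Values are log2 RMA signals, which are comparable between arrays for 1 probe set but not between probe sets. In RNA of whole flies, fewer cells of a type and less RNA per cell cannot be told apart. A single limma model covered all 20 arrays, with Benjamini-Hochberg adjustment over 14010 probe sets, and a gene was called changed when its adjusted p was below 0.01 and its difference reached 1.2-fold, or 0.263 on the log2 scale. Because 4 arrays against 4 allow no exact two-sided permutation p below 0.0286, that value marks groups that do not overlap. The number of arrays, 4 per group, limits the precision of each mean.

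Array medians lay between 5.49 and 5.68, and correlations between arrays lay between 0.957 and 0.997. Sod2 measured 8.36 to 8.47 in MnSOD -DOX day 73, 12.36 to 12.61 in MnSOD +DOX day 73 and 12.22 to 12.26 in MnSOD +DOX day 83, so the transgene followed its labels. Of the 5 groups, control +DOX was the least even. The mean of 9 spike-in control probe sets was 8.41, 7.98 and 8.09 in control +DOX replicates 1, 2 and 3 but 9.69 in replicate 4, and it lay between 9.36 and 10.24 in the other 16 arrays.

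As a first signed value, the immune peptide gene DptB was higher by 4.22 (SE 0.31, limma adjusted p = 2.598e-09) in control +DOX than in control -DOX by the column labels. The direction of the DOX response in control flies by these labels is opposite to the direction the study describes, and this includes Sod2, which by the labels read 7.38 to 7.67 in control -DOX and 7.59 to 8.14 in control +DOX (change 0.38, SE 0.09, adjusted p = 0.003124). In the MnSOD line the sign of DptB was the other way. It read 12.15 to 12.57 in MnSOD -DOX day 73. With DOX it read 8.68 to 11.27 at day 73 and 8.83 to 9.78 at day 83. By the labels it read 8.32 to 8.84 in control -DOX and 12.72 to 12.90 in control +DOX. The groups follow the labels here. Exchanging the 2 control groups turns the sign of each control result and keeps its size, and it changes the DOX-corrected calls over all probe sets from 311 higher and 530 lower to 656 and 642 at day 73, and from 1139 and 1329 to 858 and 1471 at day 83. At both ages the exchanged form, and not the labelled form, gives the numbers of higher and lower genes that the study reports. Whether the control labels are exchanged was not tested further. The sign of each control result below therefore holds only for the labels as given. Results for the members that rest on the control groups are also given in the exchanged form.

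By the column labels, all 26 subunits without a suffix had a higher mean in control +DOX than in control -DOX, and 8 rose. They were the core subunits Prosalpha3 and Prosbeta5, the base subunits Rpt2, Rpn2 and Rpn13, and the lid subunits Rpn6, Rpn7 and Rpn8. Among all 39 genes, 8 were called higher (20.5%) where 12.1% of all probe sets were, and 2 paralogs were called lower (5.13%) where 14.1% of all probe sets were. The median change was 0.22 over the 12 core subunits, 0.33 over the 14 regulatory subunits and -0.12 over the 13 paralogs, beside -0.05 over all probe sets. The share called was 2 of 12 in the core and 6 of 14 in the regulatory particle. With every array centred on its median the split among the 39 genes was 13 higher and 1 lower, and with quantile normalization it was 3 higher and 1 lower. The share of all probe sets called under either setting is not given here, so these counts show only that the calls depend on normalization.

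**Figure D1:**
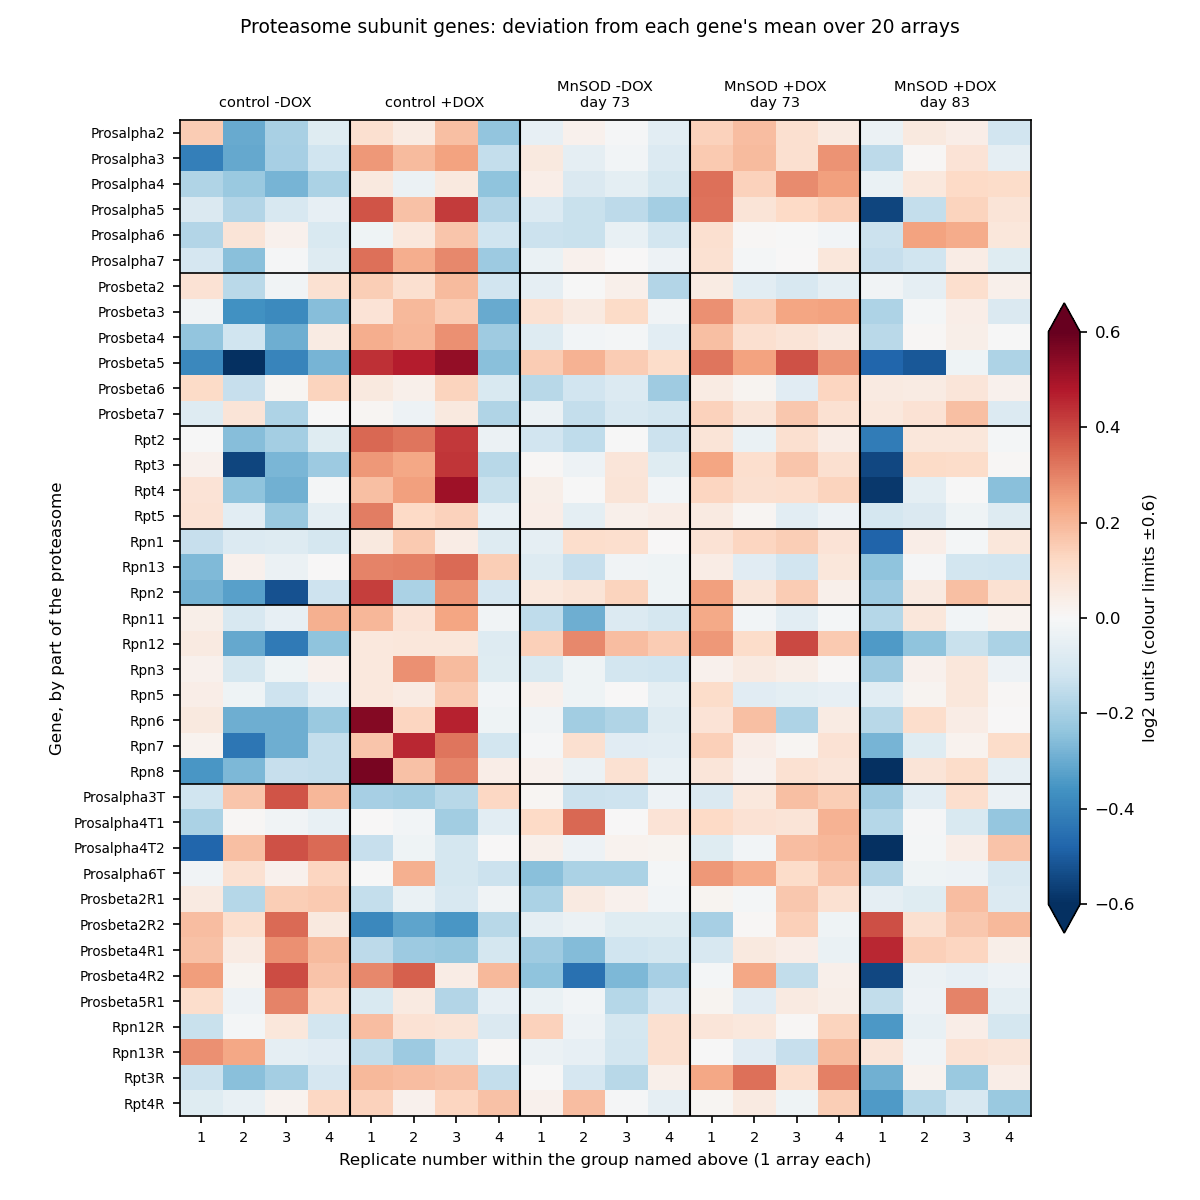
Heat map of 39 proteasome subunit genes (rows, by class) on 20 arrays (columns, by group). Colour gives the log2 signal minus the gene's mean over all arrays; replicates 1 to 3 of control +DOX are above the mean for most subunits without a suffix, and replicate 4 is not.

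Prosbeta5, which carries the chymotrypsin-like site of the core, moved the most. Its log2 signals in control -DOX were 8.04, 7.65, 8.03 and 8.14 and in control +DOX 8.86, 8.90, 8.95 and 8.17. The groups did not overlap, although replicate 4 of control +DOX lay only just above the highest array without DOX. The change was 0.75 (SE 0.14, adjusted p = 0.0002713). Prosbeta2, which carries the trypsin-like site, read 9.47, 9.22, 9.37 and 9.48 without DOX and 9.54, 9.48, 9.58 and 9.27 with it. Its change was 0.08 (adjusted p = 0.3956) and the groups overlapped, so of the catalytic subunits measured only Prosbeta5 passed the test.

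The other alpha and beta subunits ranged from 0.0006 for Prosbeta6 to 0.40 for the alpha ring subunit Prosalpha3 (SE 0.09, adjusted p = 0.001118). Prosbeta6, Prosbeta7 and Prosalpha6 had the smallest changes of the subunits without a suffix, at 0.0006, 0.01 and 0.06. For Prosbeta6 the arrays without DOX read 9.61, 9.35, 9.51 and 9.63 and those with DOX 9.55, 9.52, 9.62 and 9.40, fully interleaved. For Prosbeta7 they read 8.71, 8.87, 8.61 and 8.79 against 8.80, 8.76, 8.85 and 8.61, and for Prosalpha6 7.80, 8.06, 8.01 and 7.89 against 7.96, 8.05, 8.15 and 7.86. In all 3 genes the groups overlapped throughout, while Prosalpha3 read 8.25 to 8.54 without DOX and 8.52 to 8.93 with it.

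In the regulatory particle the largest change belonged to Rpn8, the lid subunit that pairs with Rpn11. Its signals were 6.82, 6.90, 7.03 and 7.03 in control -DOX and 7.74, 7.34, 7.46 and 7.21 in control +DOX, which did not overlap (change 0.49, SE 0.12, adjusted p = 0.002572). Rpn6, which clamps the lid to the alpha ring, read 8.68, 8.33, 8.33 and 8.40 against 9.18, 8.75, 9.09 and 8.60. Replicate 4 with DOX lay below replicate 1 without, so these groups overlapped, and the change was 0.47 (SE 0.11, adjusted p = 0.002417). The ATPase Rpt2 (0.40), the lid subunit Rpn7 (0.42) and the scaffold Rpn2 (0.41) also rose, with adjusted p from 0.003796 to 0.006112, and each overlapped between the groups. The ATPase Rpt3 had a change of 0.44 but an adjusted p of 0.01063 and was not called.

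Among the ubiquitin receptors and the deubiquitinase, 1 of 3 was called. Rpn13, which also docks the deubiquitinase Uch-L5, read 8.17, 8.46, 8.40 and 8.43 in control -DOX and 8.73, 8.74, 8.77 and 8.58 in control +DOX. These groups did not overlap and Rpn13 rose by 0.34 (SE 0.07, adjusted p = 0.001296). Rpn1, a base scaffold that also binds ubiquitin, read 7.74, 7.79, 7.80 and 7.77 against 7.94, 8.03, 7.92 and 7.80, a change of 0.15 with an adjusted p of 0.1891. Rpn11, which removes the ubiquitin chain before degradation, read 8.03, 7.89, 7.94 and 8.20 against 8.19, 8.07, 8.23 and 7.97, a change of 0.10 with an adjusted p of 0.3497. Across the 39 genes only Prosbeta5, Rpn8 and Rpn13 were higher with no overlap, where 11.7% of all probe sets were, and 2 paralogs were lower with no overlap, where 15.4% were.

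The unevenness of control +DOX bears directly on these counts. Replicate 4 was the lowest array of its group for 12 of 12 core subunits and for 13 of 14 regulatory subunits. With replicates 1 to 3 of control +DOX left out, no proteasome gene was called in either direction (0.393% of all probe sets were called higher and 0.0642% lower), and 2 of 39 had an unadjusted p under 0.05, both lower. The change was then positive for 2 of 12 core subunits (median -0.08) and for 11 of 14 regulatory subunits (median 0.09), all measured against 1 remaining array, which is assumed to vary like the other groups. With the spike-in level as a covariate again none was called (0.571% and 0.15% of all probe sets; 3 of 39 at an unadjusted p under 0.05), with medians of -0.05 and 0.04. For these 2 settings the share of all probe sets at an unadjusted p under 0.05 is not given. Those counts are therefore not a result about these genes. Without replicate 4 instead, 15 genes were called higher and 3 lower, where 16.0% and 20.1% of all probe sets were. With only the 2 control groups in the model, Prosbeta5 and Rpn8 were called higher, where 5.55% of all probe sets were, and Prosbeta2R2 and Prosbeta4R1 lower, where 3.95% were. The calls of Prosalpha3, Prosbeta5 and Rpn13 held on leaving out any single array. Rpn8 was lost without control +DOX replicate 1, Rpn6 without control +DOX replicate 1 or 3, Rpn2 without control -DOX replicate 2 or 3 or control +DOX replicate 1 or 3, Rpn7 without replicate 2 or 3 of either control group, and Rpt2 without either of those replicates or control +DOX replicate 1, with adjusted p up to 0.03756. How far the spike-in level and the proteasome changes share a source was not tested.

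**Figure D2:**
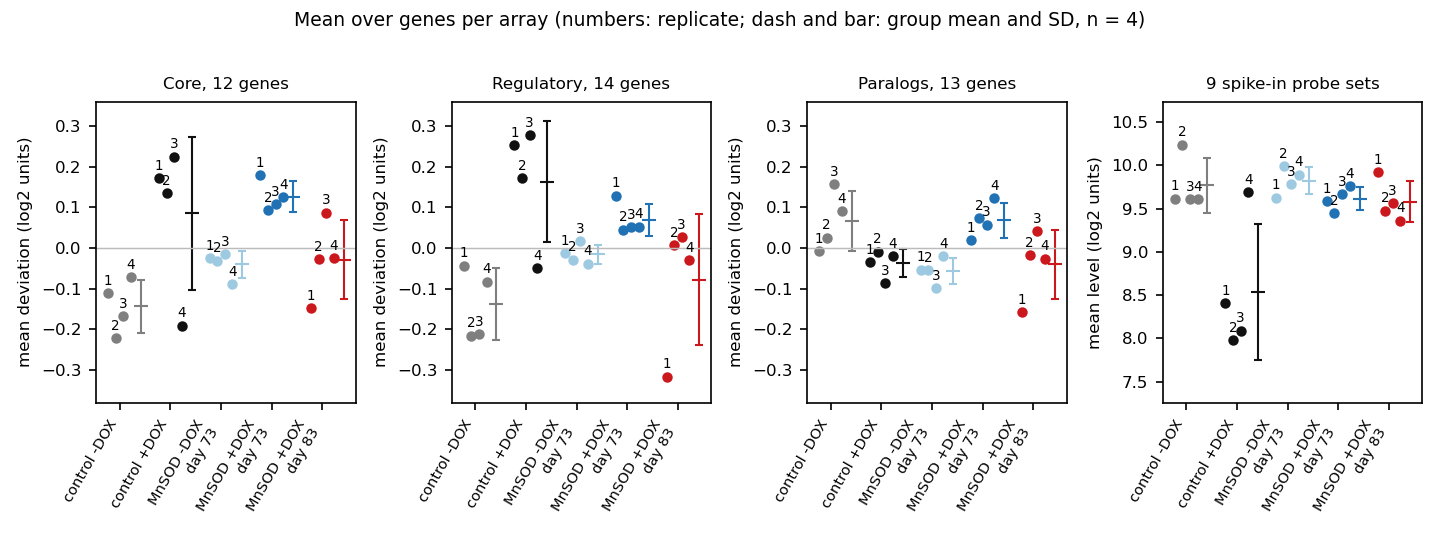
Mean deviation (log2) of the 12 core subunits, 14 regulatory subunits and 13 paralogs from their means over all arrays, and the mean log2 signal of 9 spike-in probe sets, for each array by group; dashes and bars mark group means and SDs. In control +DOX the core score is 0.17, 0.14 and 0.22 in replicates 1 to 3 and -0.19 in replicate 4, the array whose spike-in signal is 9.69.

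In the MnSOD line at day 73, no proteasome gene passed the test with DOX against without, in either direction, where 0.2% of all probe sets were called higher and 0.464% lower. At an unadjusted limma p under 0.05 there were 10 of 39 genes, where 1425 of 14010 probe sets were in either direction. Each of the 10 had a higher mean with DOX: 5 in the core, 1 in the regulatory particle and 4 paralogs. Of 39 genes, 36 had a higher mean with DOX. The median change was 0.16 over the core, 0.08 over the regulatory particle and 0.09 over the paralogs, beside -0.0012 over all probe sets. The exceptions in sign were Rpt5 at -0.02, Prosalpha4T1 at -0.01 and Rpn5 at -0.003.

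The separation of the arrays differed between the classes. In 10 of 12 core subunits all 4 arrays of MnSOD +DOX day 73 lay above all 4 of MnSOD -DOX day 73, against 4 of 14 regulatory subunits, 4 of 13 paralogs and 7.83% of all probe sets. No gene of the 39 lay lower with no overlap, where 5.06% of all probe sets did. The 2 core subunits that overlapped were Prosalpha7 and Prosbeta2, with changes of 0.05 and 0.01. The spread between replicates was small in these groups: the median SD over core subunits was 0.048 in MnSOD -DOX day 73 and 0.059 in MnSOD +DOX day 73, compared with 0.12 and 0.19 in control -DOX and control +DOX.

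Prosalpha4, an alpha ring subunit, read 7.65, 7.52, 7.55 and 7.51 without DOX and 7.94, 7.75, 7.89 and 7.86 with it, a change of 0.30 (SE 0.07, adjusted p = 0.03207). The alpha ring subunit Prosalpha5 read 7.27, 7.22, 7.20 and 7.15 against 7.68, 7.43, 7.47 and 7.50, a change of 0.31 with an adjusted p of 0.3205. The largest change in this comparison was that of the paralog Prosalpha6T, which read 5.88, 5.94, 5.94 and 6.12 against 6.39, 6.36, 6.24 and 6.30 (0.35, SE 0.08, adjusted p = 0.01629). None of the 3 overlapped between groups and none was called. When the model held these 2 groups alone, all 3 were called, with adjusted p of 0.005767, 0.006821 and 0.002972, and 1.35% of all probe sets were called higher and 1.13% lower.

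None of the catalytic and ubiquitin-handling subunits was called at day 73. Prosbeta5 read 8.58, 8.63, 8.58 and 8.54 without DOX and 8.74, 8.66, 8.80 and 8.70 with it, a change of 0.15 whose groups did not overlap. Prosbeta2 read 9.33, 9.38, 9.42 and 9.21 against 9.43, 9.32, 9.29 and 9.34. Rpn11 read 7.84, 7.70, 7.91 and 7.88 against 8.22, 7.97, 7.93 and 7.98, a change of 0.19 without overlap. The receptor changes were 0.07 for Rpn1 and 0.05 for Rpn13, with overlapping groups. Rpn1 read 7.82, 7.98, 7.98 and 7.88 against 7.96, 8.01, 8.02 and 7.96, and Rpn13 read 8.36, 8.29, 8.41 and 8.41 against 8.48, 8.36, 8.32 and 8.50.

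At day 83 with DOX, set against MnSOD -DOX day 73, the core and regulatory medians lay near 0, at 0.02 and -0.05, beside -0.04 over all probe sets. The lid subunit Rpn12 fell and the paralog Prosbeta4R1 rose, which is 1 gene of 39 lower (2.56%, where 6.26% of all probe sets were) and 1 higher (2.56%, where 3.01% were). Rpn12 read 8.21, 8.36, 8.26 and 8.22 in MnSOD -DOX day 73 and 7.73, 7.83, 7.94 and 7.88 in MnSOD +DOX day 83. The groups did not overlap, and Rpn12 fell by 0.42 (SE 0.09, adjusted p = 0.001942). Prosbeta5 read 7.95, 7.92, 8.40 and 8.24 at day 83, also below every array without DOX, with a change of -0.45 (SE 0.14, adjusted p = 0.02123) that was not called. In all, 3 genes were higher with no overlap, where 9.71% of all probe sets were, and 4 were lower, where 17.2% were. Without MnSOD -DOX day 73 replicate 2, Rpn12 had an adjusted p of 0.01013 and was not called.

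The other catalytic and ubiquitin-handling subunits had day 83 changes between -0.13 and 0.13. Prosbeta2 read 9.37, 9.33, 9.49 and 9.42, Rpn11 7.82, 8.06, 7.98 and 8.01, and Rpn13 8.19, 8.43, 8.33 and 8.31. Rpn1 read 7.40, 7.91, 7.87 and 7.95. Replicate 1 of this group was the lowest of its 4 arrays for 14 of 14 regulatory subunits and for 7 of 12 core subunits, as the Rpn1 values show. With that replicate left out, Rpn12 still fell, by 0.38 (adjusted p = 0.00664), and Prosbeta4R1 still rose, by 0.28 (adjusted p = 0.009018), where 3.12% of all probe sets were called higher and 4.02% lower.

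Between day 73 and day 83 on DOX, the only genes called were Prosbeta5 and Rpn12, both lower (5.13% of the 39, where 2.74% of all probe sets were called lower and 0.949% higher). Prosbeta5 fell by 0.60 (SE 0.14, adjusted p = 0.007314). Rpn12 read 8.33, 8.18, 8.47 and 8.23 at day 73 and fell by 0.46 (SE 0.09, adjusted p = 0.002581). Neither overlapped between the days. Of 39 genes, 31 had a lower mean at day 83, and 12 were lower with no overlap, where 14.8% of all probe sets were, while none was higher, where 7.01% were. The medians were -0.13 over the core, -0.11 over the regulatory particle and -0.18 over the paralogs, beside -0.04 over all probe sets. Without MnSOD +DOX day 83 replicate 1 the Prosbeta5 change was -0.54 with an adjusted p of 0.0251, and it was lost on leaving out any 1 of 10 of the 20 arrays, which were all arrays of MnSOD -DOX day 73 and MnSOD +DOX day 73 and replicates 1 and 2 of MnSOD +DOX day 83. The Rpn12 call was lost without MnSOD +DOX day 73 replicate 3 (adjusted p = 0.01203).

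**Figure D3:**
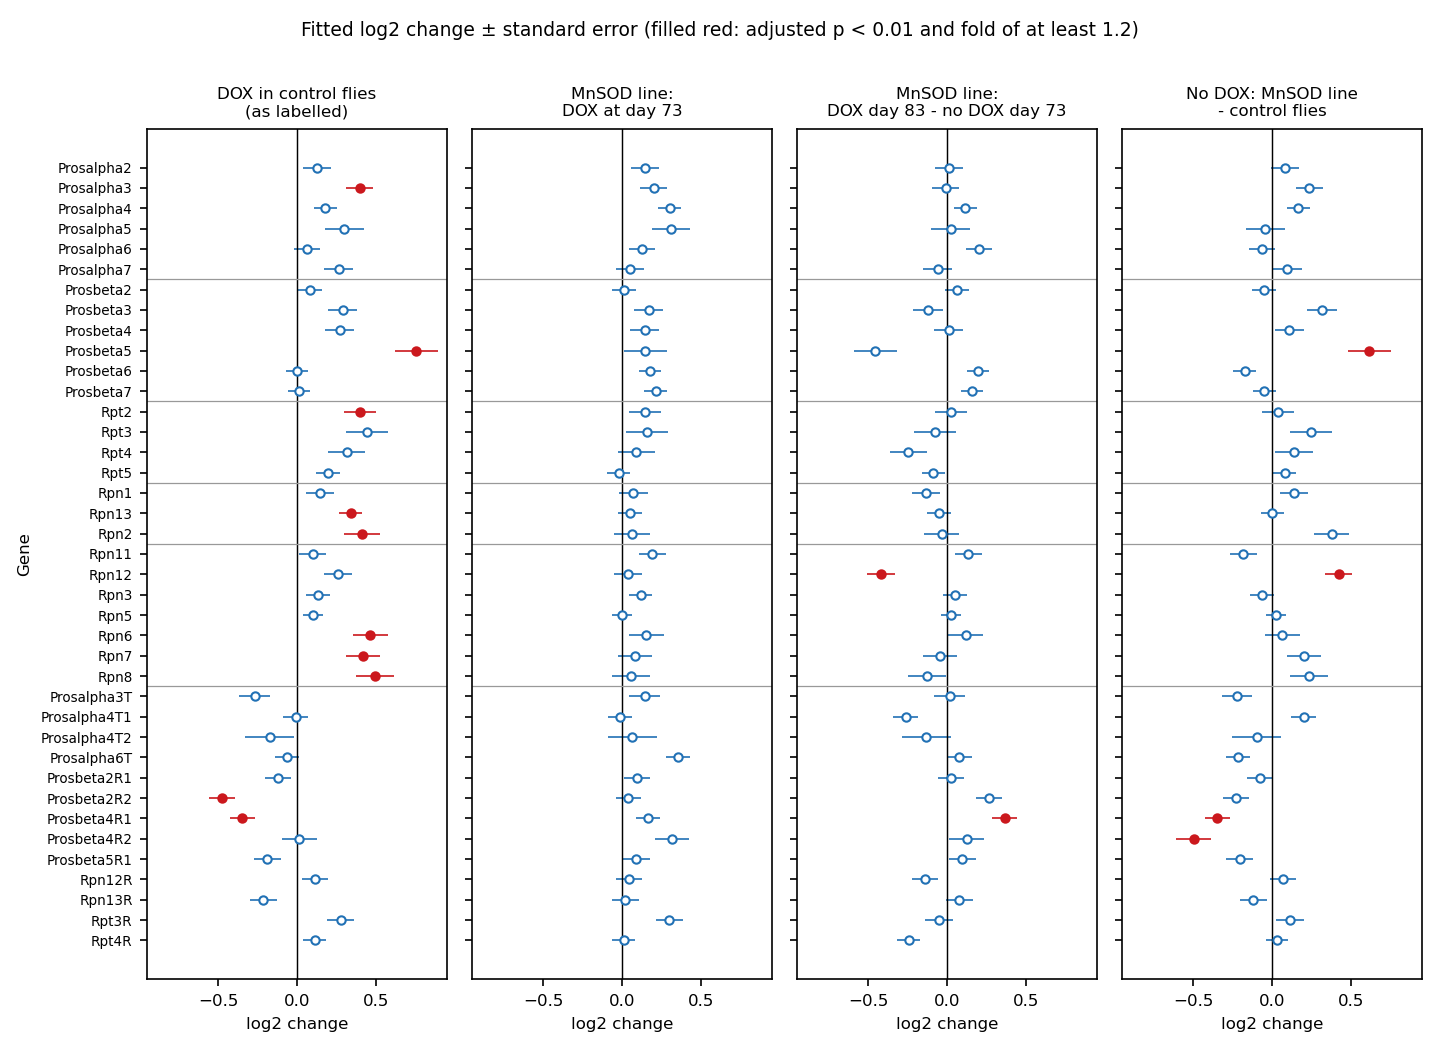
Log2 change with its standard error for 39 genes, by class, in 4 comparisons of 4 arrays against 4; filled red points are called genes. In control flies by the labels the 26 subunits without a suffix all lie above 0. At day 83 with DOX, set against MnSOD -DOX day 73, Rpn12 at -0.42 and Prosbeta4R1 at 0.36 are the called genes.

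Without DOX, the MnSOD line already differed from control flies in the same 2 subunits. Sod2 itself was also called higher in this comparison, and its arrays in MnSOD -DOX day 73 lay above those of both control groups. Prosbeta5 was higher by 0.61 (SE 0.14, adjusted p = 0.003765) and Rpn12 by 0.42 (SE 0.09, adjusted p = 0.002065), the latter with 8.12, 7.76, 7.65 and 7.83 in control -DOX. Neither overlapped between the groups. They made 2 of 39 genes higher (5.13%, where 3.21% of all probe sets were) and 2 paralogs made 2 lower (5.13%, where 3.33% were). The median change was 0.09 over the core and 0.11 over the regulatory particle, beside -0.0065 over all probe sets. In 7 genes the line lay above control flies with no overlap, where 11.5% of all probe sets did, and in 3 below, where 10.5% did. The Prosbeta5 call was lost without MnSOD -DOX day 73 replicate 1, 2 or 3 or control -DOX replicate 2 (adjusted p up to 0.01819), and the Rpn12 call without MnSOD -DOX day 73 replicate 2 or control -DOX replicate 3 (up to 0.01117 by limma). With the control groups exchanged, Prosbeta5 differed by -0.14 and was not called, no gene was called higher (9.11% of all probe sets), and Rpt2, Rpn13, Rpn6 and the paralog Prosbeta4R2 were called lower (8.9% of all probe sets).

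**Figure D4:**
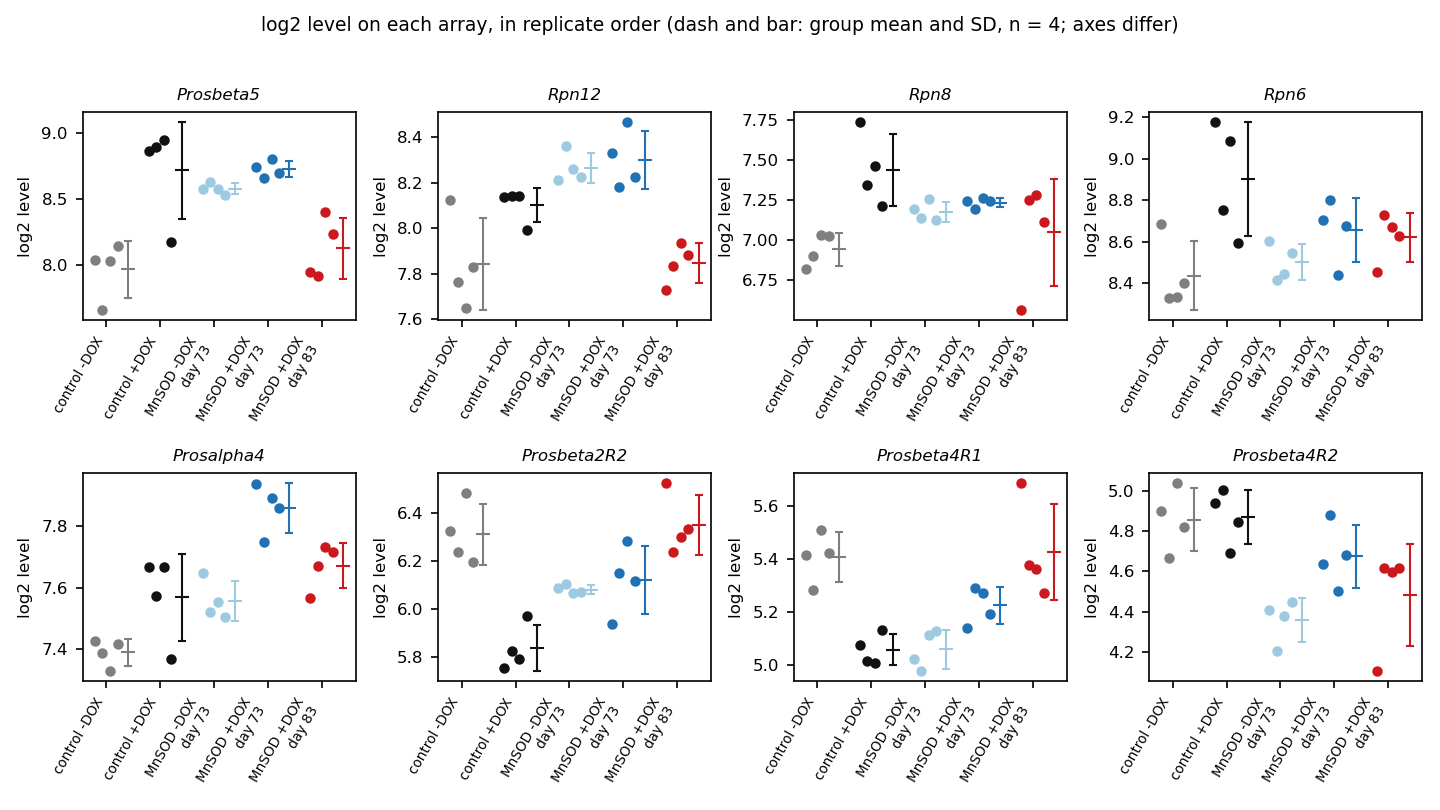
Log2 signal of 8 named genes on each array, by group, with the mean and SD of 4 arrays per group. Prosbeta5 averages 7.97 in control -DOX, 8.72 in control +DOX, 8.58 and 8.73 in the MnSOD groups at day 73 and 8.13 at day 83.

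Over the 5 groups Prosbeta5 averaged 7.97 ± 0.21 (SD, n = 4) in control -DOX, 8.13 ± 0.23 in MnSOD +DOX day 83, 8.58 ± 0.040 in MnSOD -DOX day 73, 8.72 ± 0.37 in control +DOX and 8.73 ± 0.061 in MnSOD +DOX day 73. Rpn12 averaged 7.84 ± 0.20 in control -DOX and 7.84 ± 0.088 in MnSOD +DOX day 83, 8.10 ± 0.073 in control +DOX, 8.26 ± 0.067 in MnSOD -DOX day 73 and 8.30 ± 0.13 in MnSOD +DOX day 73. In both genes control -DOX and MnSOD +DOX day 83 formed the low end. The group that most often held the highest mean differed between the core and the regulatory particle, with some groups shared. Of 12 core subunits, 6 had their highest mean in MnSOD +DOX day 73, 4 in control +DOX and 2 in MnSOD +DOX day 83. Of 14 regulatory subunits, 11 had it in control +DOX and 3 in MnSOD +DOX day 73. The lowest mean was in control -DOX for 7 core and 9 regulatory subunits. No share of all probe sets is given beside these counts, and the control +DOX means carry the unevenness of that group. With the control groups exchanged, the counts of control +DOX here, in the group averages above and in the scores below belong to control -DOX and the reverse.

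The particles were also set side by side on single arrays. A core score and a regulatory score were taken as the mean deviation of the subunits from their means over all 20 arrays. The core score exceeded the regulatory score by 0.048 to 0.073 in the 4 arrays of MnSOD +DOX day 73, whereas it lay below it by 0.037 to 0.141 in the 4 arrays of control +DOX and by 0.003 to 0.050 in the 4 arrays of MnSOD -DOX day 73. In control -DOX the difference ranged from -0.068 to 0.044, and in MnSOD +DOX day 83 from -0.035 to 0.168. These ranges are a description of the scores and carry no test.

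Subtracting the control response to DOX from the response of the MnSOD line gives a DOX-corrected change, which inherits the unevenness of control +DOX. At day 73 only the paralogs Prosbeta2R2 and Prosbeta4R1 were called, both higher (5.13% of the 39, where 2.22% of all probe sets were called higher and 3.78% lower). The median was -0.03 over the core and -0.24 over the regulatory particle, beside 0.07 over all probe sets. At day 83 the corrected change was negative for 9 of 12 core and 13 of 14 regulatory subunits, with medians of -0.19 and -0.38 beside 0.0076 over all probe sets. Prosbeta5 (-1.21, SE 0.19, adjusted p = 8.617e-05), Rpn12 (-0.68, SE 0.12, adjusted p = 0.00033), Rpn8 (-0.62, SE 0.17, adjusted p = 0.007964) and Rpn13 (-0.39, SE 0.11, adjusted p = 0.007634) were called lower, which is 10.3% of the 39 where 9.49% of all probe sets were, and Prosbeta2R2 and Prosbeta4R1 were called higher, where 8.13% of all probe sets were.

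These corrected values depend on the control arrays. With replicates 1 to 3 of control +DOX left out no proteasome gene was called at either day, although some changes stayed close in size. At day 83 they were 0.64 for Prosbeta4R1, 0.61 for Prosbeta2R2, -0.57 for Rpn12, -0.66 for Prosbeta5, -0.39 for Rpn8 and -0.27 for Rpn13, with adjusted p from 0.01746 to 0.28, and at day 73 they were 0.44 for Prosbeta4R1 and 0.38 for Prosbeta2R2. In this setting 0.264% of all probe sets were called higher and 0.742% lower at day 73 and 0.685% and 1.45% at day 83. The core medians turned to 0.21 at day 73 and 0.12 at day 83. Without replicate 4 of that group 2 were called higher at day 83 and 14 lower, where 12.6% and 13.4% of all probe sets were. Leaving out any single array kept the day 83 calls of Prosbeta5, Rpn12, Prosbeta2R2 and Prosbeta4R1, whereas Rpn13 was lost without any 1 of 11 arrays (adjusted p up to 0.01931) and Rpn8 without any 1 of 14 (up to 0.02118). The day 73 calls of Prosbeta2R2 and Prosbeta4R1 were lost without any 1 of 6 and 5 arrays (up to 0.0141 by limma). With the spike-in covariate, Prosbeta5 (-0.77, adjusted p = 0.001403) and Rpn12 (-0.59, adjusted p = 0.008266) were called lower at day 83, where 3.45% of all probe sets were, and Prosbeta2R2 (0.65, adjusted p = 0.002257) and Prosbeta4R1 (0.65, adjusted p = 0.002041) higher, where 2.38% were. With the control groups exchanged, 5 genes were called higher at day 73 and none lower (4.68% and 4.58% of all probe sets): Prosbeta5 at 0.90, Rpn6 at 0.62, Prosalpha3 at 0.60, the paralog Rpt3R at 0.58 and Prosalpha4 at 0.48. In that form Rpn6 alone was called at day 83, higher by 0.58, where 6.12% of all probe sets were called higher and 10.5% lower. The corrected change was then positive for 12 of 12 core subunits at both days and for 14 of 14 regulatory subunits at day 73 and 13 of 14 at day 83, with core and regulatory medians of 0.36 and 0.40 at day 73 and 0.23 and 0.26 at day 83.

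Among the paralogs with a suffix, 9 of 13 had a lower mean with DOX in control flies, and Prosbeta2R2 and Prosbeta4R1 fell. Prosbeta2R2, a duplicate of the catalytic subunit gene Prosbeta2, read 6.33, 6.24, 6.48 and 6.20 in control -DOX and 5.75, 5.83, 5.79 and 5.97 in control +DOX. The groups did not overlap, and it fell by 0.47 (SE 0.08, adjusted p = 0.0001863). In the MnSOD line it read 6.09, 6.10, 6.07 and 6.07 without DOX, 5.94, 6.15, 6.28 and 6.12 with DOX at day 73 and 6.53, 6.24, 6.30 and 6.33 at day 83. Only day 83 stood clear of the group without DOX (0.27, adjusted p = 0.02316, not called).

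Prosbeta4R1 and Prosbeta4R2, duplicates of Prosbeta4, are listed in the RefSeq table with 1 gene between them. Both were lower in the line than in control flies without DOX, the 1 comparison in which Prosbeta4R2 was called. Prosbeta4R1 read 5.41, 5.28, 5.51 and 5.42 in control -DOX and 5.08, 5.02, 5.01 and 5.13 in control +DOX, and fell by 0.35 (SE 0.08, adjusted p = 0.001614). In the MnSOD line it read 5.02, 4.98, 5.12 and 5.13 without DOX, 5.14, 5.29, 5.27 and 5.19 at day 73 on DOX and 5.69, 5.38, 5.36 and 5.27 at day 83. Its level without DOX was thus below that of control flies by 0.35 (adjusted p = 0.004624), and it rose by 0.36 at day 83 (SE 0.08, adjusted p = 0.002729), with no overlap in either comparison. The day 83 call was lost without MnSOD -DOX day 73 replicate 1 or 2 (adjusted p up to 0.01319), and the difference from control flies without either of these or control -DOX replicate 3 or 4 (up to 0.02071 by limma).

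Prosbeta4R2 read 4.90, 4.67, 5.04 and 4.82 in control -DOX and 4.94, 5.01, 4.69 and 4.84 in control +DOX. In the MnSOD line it read 4.41, 4.20, 4.38 and 4.45 without DOX, 4.64, 4.88, 4.50 and 4.68 at day 73 on DOX and 4.10, 4.62, 4.60 and 4.62 at day 83. The control values with and without DOX were interleaved, and the line without DOX lay below control flies with no overlap (change of -0.50, SE 0.11, adjusted p = 0.003717), a call lost without MnSOD -DOX day 73 replicate 2 or 3 or control -DOX replicate 3. The DOX-corrected changes of Prosbeta2R2 and Prosbeta4R1 were 0.51 and 0.51 at day 73 and 0.74 and 0.71 at day 83, and turned to -0.43 and -0.18 at day 73 with the control groups exchanged.

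Of the other paralogs, Prosalpha3T, Prosalpha4T1, Prosalpha4T2, Prosalpha6T, Prosbeta2R1, Prosbeta5R1, Rpn12R, Rpn13R, Rpt3R and Rpt4R, none was called in any of the 7 comparisons. Prosalpha6T read 6.11, 6.22, 6.16 and 6.26 in control -DOX, 6.13, 6.35, 6.03 and 6.0007 in control +DOX and 5.95, 6.11, 6.10 and 6.04 in MnSOD +DOX day 83. Rpt3R, a duplicate of the ATPase gene Rpt3, read 4.77 to 4.92 in control -DOX, 4.88 to 5.22 in control +DOX, 4.86 to 5.05 in MnSOD -DOX day 73, 5.12 to 5.35 in MnSOD +DOX day 73 and 4.73 to 5.06 in MnSOD +DOX day 83. Its changes had the sign of most subunits without a suffix, with 0.28 in control flies (adjusted p = 0.01554) and -0.35 between the days on DOX (adjusted p = 0.01276). Prosalpha3T, in contrast, had a change of -0.27 in control flies (adjusted p = 0.02896).

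Testis and spermatid markers moved in some of the same comparisons. Of 28 listed genes 21 were matched, and their mean signal lay at 7.69 to 7.87 in control -DOX, 7.60 to 7.80 in control +DOX, 7.33 to 7.52 in MnSOD -DOX day 73, 7.54 to 7.71 in MnSOD +DOX day 73 and 7.62 to 7.78 in MnSOD +DOX day 83. Among these 21 genes, 5 were called lower and 1 higher in control +DOX than in control -DOX (14.1% and 12.1% of all probe sets), 8 were lower in the MnSOD line than in control flies without DOX (3.33% of all probe sets), 9 were higher at day 83 (3.01%), and 5 and 9 were higher in the corrected changes at day 73 and day 83 (2.22% and 8.13%). The samples are whole males, so the testis is part of each. Of 10 matched accessory gland markers, 7 were lower at day 83 (6.26% of all probe sets) and 4 between the days on DOX (2.74%). Their list means were 7.93 to 8.11 in MnSOD -DOX day 73, 7.67 to 7.99 in MnSOD +DOX day 73 and 7.24 to 7.74 in MnSOD +DOX day 83. Of these 10, 3 were higher in control +DOX (12.1% of all probe sets) and 3 in the line without DOX (3.21%). In the corrected changes 1 was lower at day 73 (3.78%) and 5 at day 83 (9.49%). Of 7 matched gut markers 3 were lower in control +DOX (14.1% of all probe sets), with list means of 9.76 to 9.94 in control -DOX and 9.48 to 9.59 in control +DOX. In the line without DOX 2 gut markers were higher (3.21% of all probe sets) and 1 was lower (3.33%). Of 8 matched muscle markers 3 were higher in the line without DOX (3.21% of all probe sets), with list means of 7.41 to 7.72 in control -DOX and 8.03 to 8.18 in MnSOD -DOX day 73. Of 5 matched eye markers 2 were lower in the line without DOX (3.33% of all probe sets). Their list means were 8.64 to 8.73 in control -DOX and 8.15 to 8.48 in MnSOD -DOX day 73. In every other comparison at most 1 eye marker was called. Of 5 matched fat body markers at most 1 was called in each direction in any comparison. The part of these tissues in the proteasome results was not tested.

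Prosalpha7 and Prosbeta6 had a second probe set of much lower signal, and it disagreed with the first. For Prosalpha7 the probe set used changed by 0.26 with DOX in control flies and the dimmer one by -0.52 (adjusted p = 2.572e-05). For Prosbeta6 the probe set used changed by 0.0006 and the dimmer one by -0.90 (adjusted p = 0.0001208). The statements on these 2 genes above therefore hold for 1 of 2 probe sets each.

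Genes that build, regulate or feed the proteasome were followed as lists. Of 14 matched genes of assembly and regulation, 3 rose with DOX in control flies (21.4%, where 12.1% of all probe sets were called higher) and none fell. They were Keap1, the repressor of the transcription factor encoded by cnc, at 0.66 (adjusted p = 0.0007413), maf-S, the partner of that factor, at 0.58 (adjusted p = 0.001858), and the deubiquitinase Uch-L5 at 0.38 (adjusted p = 0.002375). The gene cnc itself, whose mammalian relatives drive proteasome genes, had changes of 0.20 in control flies (adjusted p = 0.2294), 0.38 at day 83 (adjusted p = 0.04439) and 0.43 between the days on DOX (adjusted p = 0.034), none of them called.

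Pomp, the chaperone of core assembly, was lower in the MnSOD line than in control flies. It read 7.07, 6.64, 6.62 and 6.99 in control -DOX and 5.96, 5.95, 5.92 and 5.93 in MnSOD -DOX day 73, with no overlap (change of -0.89, SE 0.20, adjusted p = 0.004253), whereas Prosbeta5 was higher in the same comparison. PI31, a proteasome-binding regulator, was lower by 0.37 there (adjusted p = 0.0006451), and at day 83 it rose by 0.29 (adjusted p = 0.004603), as did rngo by 0.30 (adjusted p = 0.006058). Keap1 had a DOX-corrected change of -0.82 at day 83 (adjusted p = 0.002614), which turned to 0.50 (adjusted p = 0.04682, not called) with the control groups exchanged. In the exchanged form 4 of the 14 genes were lower in the line without DOX (8.9% of all probe sets): Pomp at -1.36, Keap1 at -0.66, Usp14 at -0.34 and PI31 at -0.33. Uch-L5 and CG12321 were higher in that form in the corrected change at day 73 (4.68% of all probe sets). The other listed regulators, REG among them, were not called in any comparison.

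Of 8 matched genes of the unfoldase p97 and of ubiquitin delivery, Rad23 (0.47), Ufd1 (0.44) and Herc4 (0.40) rose with DOX in control flies, where 12.1% of all probe sets were called higher. TER94, the fly p97, read 9.96, 9.98, 10.07 and 9.97 in MnSOD -DOX day 73, 10.23, 10.10, 10.11 and 10.17 with DOX at day 73 and 10.31, 10.48, 10.39 and 10.32 at day 83. The 3 groups did not overlap, and TER94 rose by 0.38 at day 83 (SE 0.07, adjusted p = 0.0005561), opposite in sign to Prosbeta5 and Rpn12. Its cofactor Npl4 was higher by 0.52 in the line without DOX (adjusted p = 1.188e-05) and fell by 0.37 between the days on DOX (adjusted p = 0.001549). Ufd1 had a corrected change of -0.58 at day 83 (adjusted p = 0.006446), which turned to 0.30 with the control groups exchanged. In that form TER94, Rad23 and Herc4 were called higher in the corrected change at day 83, where 6.12% of all probe sets were. Ufd1 (0.59) and Herc4 (0.49) were called higher at day 73, where 4.68% were. In the line without DOX, TER94 (-0.37) and Rad23 (-0.53) were then called lower, where 8.9% were, and Npl4 (0.51) higher, where 9.11% were.

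Of 9 matched subunits of the COP9 signalosome, a complex related to the lid, CSN5 was the only one called by the labels. It was higher by 0.33 in control flies (1 of 9, or 11.1%, where 12.1% of all probe sets were) and had a corrected change of -0.46 at day 83 (adjusted p = 0.00731), which turned to 0.21 in the exchanged form. In that form CSN1a and CSN8 were lower in the line without DOX, where 8.9% of all probe sets were. None of 10 matched ubiquitin and conjugation genes was called in any of the 7 comparisons by the labels. In the exchanged form Uev1A and Ubc2 were lower in the line without DOX (8.9% of all probe sets). RpS27A and Uev1A were higher in that form in the corrected change at day 83 (6.12% of all probe sets).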

How the data were processed

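The values deposited by the authors are log2 RMA signals of 20 DrosGenome1 arrays in 1 table, made with affy, whose version was not given in the sources used. Groups and replicate numbers came from the sample labels, no 2 arrays held identical values, and all 20 columns were used. The labels do not say how the replicates were raised, so p-values measure the spread between these samples.

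Values were fitted in R 4.3.3 with limma 3.58.1 as 5 group means over all 20 arrays, with empirical Bayes moderation and Benjamini-Hochberg adjustment over 14010 probe sets in each of 7 contrasts. A call needed an adjusted p below 0.01 and a change of 1.2-fold or more. Tables and figures used matplotlib 3.10.9, pandas 2.3.3 and numpy 2.4.6 in Python 3.11.15. The fit was tested on simulated data.

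The members and gene lists were chosen with earlier results of these data known. Named genes were the catalytic subunits, Rpn1, Rpn11 and Rpn13, up to 4 called members per contrast by largest change, the 3 smallest changes in control flies among subunits without a suffix, the paralogs, called genes of the other lists, cnc, TER94 and Sod2. Paralogs never called are given by range or count. Genes were named through the array annotation and RefSeq. Alternatives changed the threshold, normalization, model and arrays used.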

Additional observations from a re-analysis of the deposited data

Results flagged for a closer look

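In 195 gene and group combinations of 4 arrays each, 13 had 1 array far from the other 3, where chance alone gives about 1 in 20. Of these, 5 belonged to control +DOX replicate 4: it was the low array for Prosbeta4 (8.81), Prosbeta5 (8.17), Rpn12 (7.99) and Rpt3R (4.88) and the high array for Prosalpha3T (4.58). Its spike-in mean of 9.69 set it apart from the other arrays of its group, at 8.41, 7.98 and 8.09. It lay, however, within the 9.36 to 10.24 of the arrays of the other groups. Another 4 belonged to MnSOD +DOX day 83 replicate 1, the low array for Rpt2 (7.55), Rpt3 (7.002), Rpn1 (7.40) and Prosbeta4R2 (4.10). The remaining 4 were single arrays: MnSOD -DOX day 73 replicate 2 low for Rpt5 (8.92), MnSOD +DOX day 73 replicate 1 high for Rpn5 (9.07), and in MnSOD +DOX day 83 replicate 3 high for Prosbeta2R1 (5.48) and replicate 2 low for Rpn13R (5.14).

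The response to DOX differed between the MnSOD line and control flies, by the limma test of the difference itself, for 2 genes at day 73 and 6 at day 83. At day 73 the differences were 0.51 for Prosbeta2R2 and 0.51 for Prosbeta4R1, both paralogs that were lower in control +DOX than in control -DOX. At day 83 they were 0.74 for Prosbeta2R2 and 0.71 for Prosbeta4R1, and -1.21 for Prosbeta5, -0.68 for Rpn12, -0.62 for Rpn8 and -0.39 for Rpn13. All 8 rest on the control groups, and none was called with control +DOX replicates 1 to 3 left out, where the differences were 0.38 and 0.44 at day 73 and 0.61, 0.64, -0.66, -0.57, -0.39 and -0.27 at day 83, in the same order.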

How the results depend on the processing

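Counts of the 39 genes called are given below for each alternative that moved them by over 1.5 times, in the order of the comparisons in the report. Where no share of all probe sets is given beside a count, the count is not a result about these genes. At an adjusted p under 0.05, 14 were higher in control flies, 2 higher at day 73, 2 higher and 3 lower at day 83, 5 lower between the days on DOX, 4 higher in the line without DOX, and, DOX-corrected, 4 higher and 1 lower at day 73 and 14 lower at day 83. With array weights these were 17 higher in control flies, 5 higher at day 73, 2 higher and 2 lower at day 83, 4 higher in the line, and, DOX-corrected, 4 higher and 8 lower at day 73 and 4 higher and 13 lower at day 83. With arrays centred on their medians, 13 were higher and 1 lower in control flies, 2 higher at day 83, 0 lower between the days on DOX and 0 higher in the corrected change at day 73 (limma; at an unadjusted p under 0.05, 8 lower and 4 higher). With quantile normalization, 3 were higher and 1 lower in control flies, 1 higher at day 73, 2 lower at day 83, 4 higher in the line and 0 higher in the corrected change at day 73. With only the groups compared in the model, 2 were higher in control flies, 3 higher at day 73, 0 higher at day 83, 1 lower between the days, 1 higher in the line and 2 lower in the corrected change at day 83. With the spike-in covariate, 0 were higher and 0 lower in control flies, 2 lower at day 83, 4 lower between the days, and, DOX-corrected, 0 higher at day 73 and 2 lower at day 83. Without control +DOX replicates 1 to 3 together, 0 were higher and 0 lower in control flies, 1 higher at day 73, 2 lower at day 83, 4 higher in the line, and, DOX-corrected, 0 higher at day 73 and 0 higher and 0 lower at day 83. Taking the probe set of largest spread for each gene gave 4 lower in control flies and 4 higher in each corrected change. Without the 40% lowest probe sets, which removed Prosbeta4R1 and Prosbeta4R2 from the test, 1 was lower in control flies, 0 higher at day 83, 0 lower in the line and 1 higher in each corrected change.

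Exchanging the control groups turned the sign of 18 of 26 calls. Only the calls in control flies turned by construction, and the others depended on the values. In control flies 2 were then higher and 8 lower, with Prosalpha3 at -0.40, Prosbeta5 at -0.75, Rpt2 at -0.40, Rpn13 at -0.34, Rpn2 at -0.41, Rpn6 at -0.47, Rpn7 at -0.42, Rpn8 at -0.49, Prosbeta2R2 at 0.47 and Prosbeta4R1 at 0.35. In the line without DOX 0 were higher and 4 lower, with Prosbeta5 at -0.14 and Prosbeta4R1 at 0.0024. The corrected change at day 73 had 5 higher, with Prosbeta2R2 at -0.43 and Prosbeta4R1 at -0.18, and that at day 83 had 1 higher and 0 lower, with Prosbeta5 at 0.30, Rpn13 at 0.29, Rpn8 at 0.37 and Prosbeta2R2 at -0.21.

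Leaving out each array in turn gave 4 to 15 higher and 2 to 3 lower in control flies, 0 to 1 higher and 0 to 0 lower at day 73, 0 to 1 higher and 0 to 2 lower at day 83, 0 to 0 higher and 0 to 3 lower between the days, 0 to 3 higher and 0 to 2 lower in the line, 0 to 3 higher and 0 to 2 lower in the corrected change at day 73, and 2 to 2 higher and 2 to 14 lower at day 83. No share of all probe sets is given beside these ranges, so they show only how the calls moved. Replicate numbers did not pair the samples: of 40 correlations between same-numbered arrays of different groups 6 exceeded 0.1 (range -0.39 to 0.36), and in 8 of these 40 comparisons the array of the first group correlated best with its own number in the second. With the replicate block, 2 of 26 calls were lost, both in the corrected change at day 83, which left 2 genes lower there. Dropping the minimum fold and using trended, robust variances changed no call. Beyond what is stated here, the causes of these shifts were not tested. RMA values carry no detection call, so signal over background could not be judged for the dim paralogs.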
